A study of Mus musculus with 14 samples.

Results

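The respiratory chain genes encoded in the nucleus were taken as every gene whose array symbol starts with Nduf, Uqcr, Cox4 to Cox8 or Atp5, or is Sdha, Sdhb, Sdhc or Sdhd. The rule found 89 symbols. Of these, 87 of the 23152 genes with a value had probesets of their own, and 85 of the 17364 genes bright enough to test were members. They comprised 37 genes named for complex I, 4 complex I assembly factors (Ndufaf1 to Ndufaf4), 4 genes of complex II, 7 of complex III, 16 of complex IV and 17 of the ATP synthase. The members not tested were Cox7b2 and Cox8c, which lay below the limit for dim genes in the mean over all arrays. Cox6c and Uqcr10 were measured only by probesets that also name another gene and have no gene value. The rule is one of names: Cox4nb is now called Emc8 and encodes a subunit of a membrane protein insertion complex, and Atp5s and Atp5sl are now called Dmac2l and Dmac2. These 3 genes are counted with complex IV or the ATP synthase by their names, not as subunits.

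The cells were neural stem cells that had been taken from the mouse subventricular zone on postnatal day 4 and grown as 7 clones, each from a different animal and each exposed to adenoviral Cre. Clones 1 to 4 were Cic+/+ and clones 5 to 7 were Cic-/-, made from the conditional Cicflox/flox allele; Cic encodes the repressor capicua. Each clone was kept for 24 h in NeuroCult proliferation medium with EGF and for 24 h in the same medium without it, so that there were 4 Cic+/+ and 3 Cic-/- arrays in each medium. RNA was hybridised to Affymetrix arrays, and a level is the median log2 value of the probesets of a gene. Levels are listed in the order of clones 1 to 4 for Cic+/+ and of clones 5 to 7 for Cic-/-.

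The respiratory chain sits in the inner mitochondrial membrane. Complexes I and II pass electrons from NADH and succinate to ubiquinone, complex III passes them on to cytochrome c and complex IV to oxygen; complexes I, III and IV pump protons, and the ATP synthase uses the proton gradient to make ATP. Most subunits are encoded in the nucleus, and a core set in mitochondrial DNA. Several subunits of complex IV exist as isoforms that differ between tissues, such as heart and skeletal muscle against the other organs or testis against the soma. NRF1, GABP and YY1 are transcription factors known to bind promoters of many of these genes.

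No array stood apart in scale, with medians of 6.49 to 6.54. Cic read 9.18 to 9.69 in the Cic+/+ arrays and 7.04 to 7.67 in the Cic-/- arrays. Xist, the RNA that coats an inactive X chromosome, read 4.73 and 3.83 in clone 4 and between 11.96 and 12.57 in every other array. In each of the 6 comparisons 0 members passed, both with all clones and without clone 4. That count therefore cannot show whether clone 4 mattered. The marker lists of microglia, endothelium, erythroid cells and muscle had mean levels between 3.54 and 5.19 in all arrays, and the stem and progenitor list between 9.78 and 10.09. Of the 4 erythroid genes only 1, Alas2, was measured, and it lay below the limit for dim genes. The lists rest on different probesets, so their levels do not compare amounts of RNA. Some markers of differentiating cells moved with the media. In Cic+/+, 3 of 5 astrocyte markers tested fell with EGF: Aqp4 (-2.28 ± 0.32, limma adjusted p = 0.00379), S100b (-2.14 ± 0.44, limma adjusted p = 0.0369) and Gja1 (-0.88 ± 0.15, limma adjusted p = 0.0152). Of 5 oligodendrocyte markers 2, Mag and Mbp, fell as well. Only these 2 lay below 0, and the median of the 5 was 0.07. In Cic+/+ 0.593% of all genes fell. Over both genotypes 1 of 6 neuroblast and neuron markers passed, Dcx, which fell (-1.98 ± 0.35, limma adjusted p = 0.00699). Of the 6, 3 lay below 0, and Syt1 was at 0.41 ± 0.32 (limma adjusted p = 0.558). Over both genotypes 2.27% of all genes fell. Oligodendrocyte lineage markers also differed by genotype: Pdgfra was lower in Cic-/- with EGF (-2.61 ± 0.38, limma adjusted p = 0.0082), and Mag (-2.57 ± 0.26, limma adjusted p = 0.000208) and Mbp (-2.35 ± 0.32, limma adjusted p = 0.00256) without it. The mean level of the astrocyte list ran from 8.26 to 9.18 with EGF and from 9.65 to 10.19 without it in Cic+/+, and from 8.47 to 8.67 and from 8.95 to 9.57 in Cic-/-. The list of proliferation genes ran from 9.64 to 10.46 and from 9.28 to 9.76 in Cic+/+ and from 8.10 to 9.78 and from 8.34 to 9.79 in Cic-/-. The part of these shifts in the values below was not tested, and fewer cells of a type cannot be told apart from less RNA per cell.

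Promoters of 73 of the 87 members with a value were found in the RefSeq table (mouse assembly GRCm38.p6), 79 promoters in all, each from 250 bases before to 50 bases after a start. The core of the NRF1 site, CGCATGCG, was in 12.7% of member promoters and in 1.87% of the 32851 promoters of all genes, counting both strands. The ETS and GABP letters CCGGAAG were in 21.5% and 8.86%, the YY1 letters AAGATGGCG in 11.4% and 1.40%, the CRE letters TGACGTCA in 5.06% and 1.79% and the GC box GGGCGG in 43.0% and 35.7%. Any of the CIC octamers TGAATGAA, TGAATGGA, TCAATGAA and TCAATGGA was in 2 of the 79 member promoters (2.53%) against 3.84% of all. These are matches of letters and show no binding.

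The bases before the start are printed for Cox8a and Ndufc1, whose promoters hold the CIC octamers, for Cox6a1, which has the NRF1, ETS and GC box letters together, and for Cox8b and Ndufa4, whose values stood out with EGF and with genotype. Capitals mark the motif letters named above on either strand, and all 5 sequences run 5′ to 3′ on the strand of the gene in GRCm38.p6. The Cox8a sequence (chr19:7217617-7217866, minus strand) has the octamer TGAATGGA starting 218 bases before the start. The Ndufc1 sequence (chr3:51408956-51409205, minus strand) has TGAATGAA starting 133 bases before it. Cox6a1 (chr5:115348959-115349208, minus strand) has CGCATGCG starting 161 bases before the start and the ETS letters, as CTTCCGG, 16 bases before it. The sequences of Cox8b (chr7:140900447-140900696, minus strand) and Ndufa4 (chr6:11907451-11907700, minus strand) hold none of the letters searched.
Cox8a: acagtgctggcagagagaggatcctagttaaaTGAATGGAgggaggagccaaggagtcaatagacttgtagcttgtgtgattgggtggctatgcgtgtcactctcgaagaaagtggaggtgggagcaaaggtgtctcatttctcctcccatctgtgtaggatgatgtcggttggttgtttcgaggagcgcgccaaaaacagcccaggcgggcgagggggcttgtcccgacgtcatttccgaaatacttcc
Ndufc1: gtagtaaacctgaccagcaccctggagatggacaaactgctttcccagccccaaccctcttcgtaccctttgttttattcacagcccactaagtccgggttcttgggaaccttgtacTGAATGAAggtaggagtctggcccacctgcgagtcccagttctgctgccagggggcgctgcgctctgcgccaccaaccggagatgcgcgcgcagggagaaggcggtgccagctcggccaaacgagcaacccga
Cox6a1: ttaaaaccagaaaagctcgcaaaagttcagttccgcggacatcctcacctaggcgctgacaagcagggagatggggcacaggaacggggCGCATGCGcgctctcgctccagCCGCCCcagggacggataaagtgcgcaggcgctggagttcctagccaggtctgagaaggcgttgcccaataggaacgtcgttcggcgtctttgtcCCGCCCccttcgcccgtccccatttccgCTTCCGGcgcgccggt
Cox8b: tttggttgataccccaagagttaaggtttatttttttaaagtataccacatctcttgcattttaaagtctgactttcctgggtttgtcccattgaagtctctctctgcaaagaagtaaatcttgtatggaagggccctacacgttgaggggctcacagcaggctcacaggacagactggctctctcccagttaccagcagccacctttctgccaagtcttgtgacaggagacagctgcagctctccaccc
Ndufa4: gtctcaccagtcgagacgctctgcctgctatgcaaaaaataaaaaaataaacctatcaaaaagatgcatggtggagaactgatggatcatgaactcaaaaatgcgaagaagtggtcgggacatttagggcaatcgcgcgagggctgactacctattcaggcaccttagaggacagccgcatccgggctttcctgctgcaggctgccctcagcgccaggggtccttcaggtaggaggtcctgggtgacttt

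In each clone, the median deviation of the respiratory chain genes was lower with EGF than without it, by small amounts. With EGF it was also lower in Cic-/- than in Cic+/+ cultures. The measure is the median, over the 85 members, of each gene's deviation from its own mean over the 14 arrays. With EGF it was -0.03, -0.04, 0.05 and 0.05 in Cic+/+ clones 1 to 4 and -0.06, -0.14 and -0.18 in Cic-/- clones 5 to 7. Without EGF it read 0.03, 0.14, 0.14 and 0.17 in Cic+/+ and 0.08, -0.06 and -0.15 in Cic-/-. With EGF the genotypes did not overlap, and without EGF clone 5 lay among the Cic+/+ clones. The same median over all genes tested stayed between -0.02 and 0.02 in every array. By complex, the mean over the Cic-/- arrays with EGF was -0.15 ± 0.06 (SD, n = 3) for complex I, -0.15 ± 0.10 for complex III, -0.12 ± 0.09 for complex IV and -0.06 ± 0.08 for the ATP synthase. The corresponding means over Cic+/+ arrays with EGF were -0.01 ± 0.05 (SD, n = 4), -0.02 ± 0.13, -0.00 ± 0.03 and 0.02 ± 0.08. Genotypes with EGF were apart in complexes I and IV and overlapped in complexes II and III and the ATP synthase. These medians are a description without a test. In clone 7 the median of the members' own EGF differences was 0.03, so above 0.

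**Figure D1:**
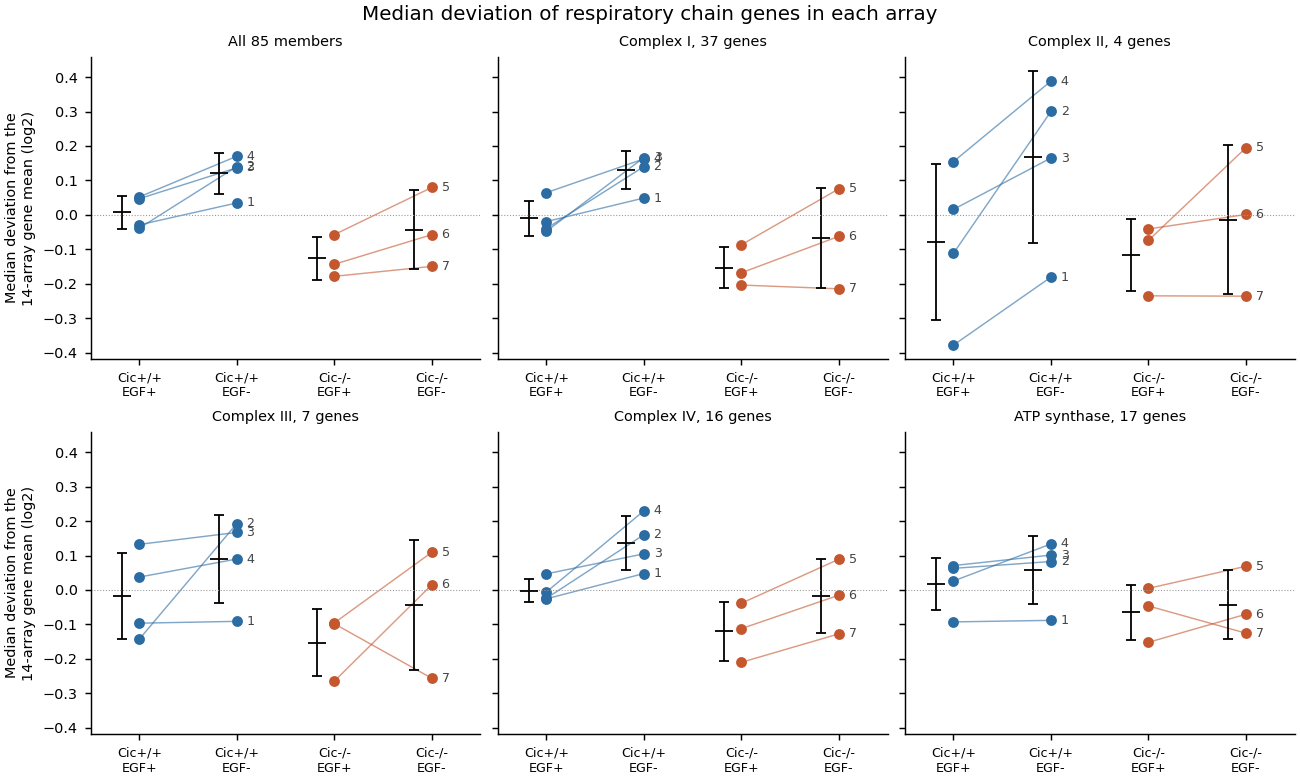
Median deviation of the respiratory chain genes from their own 14-array means (log2, vertical axis) in each array, for all 85 members and by complex; lines join the arrays of a clone, numbers are clones, and black bars are the group mean ± SD (n = 4 for Cic+/+, n = 3 for Cic-/-). With EGF every Cic-/- array lay below every Cic+/+ array for all members, from -0.18 to -0.06 against -0.04 to 0.05.

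The first comparison asks how the genes differ between the media. EGF effects are given as EGF+ minus EGF-, so a value below 0 is a lower level with EGF. In the limma model without a clone block, 0 of 85 members passed an adjusted p of 0.05 in Cic+/+, in Cic-/- or over both genotypes, where 0.593%, 0.0921% and 2.27% of all genes fell and 0.305%, 0.0979% and 1.64% rose. At an unadjusted p under 0.05, 0 members were higher and 8 lower in Cic+/+ (5.23% and 7.23% of all genes), 0 and 2 in Cic-/- (4.77% and 5.03%), and 0 and 10 over both genotypes (7.88% and 10.1%). The median member difference was -0.11 in Cic+/+, -0.09 in Cic-/- and -0.10 over both genotypes, against 0.00, 0.01 and 0.00 over all genes. In Cic-/- the median was -0.03 without clone 5. Below 0 lay 64 of 85 members in Cic+/+, 59 in Cic-/- and 66 over both genotypes, where 50.4%, 49% and 49.1% of all genes did. Of the 85 members, 84 lay within 0.5 of 0 over both genotypes, Cox8b being the exception.

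Both media were measured in each animal's culture, and within clones more members passed. With the clone as a random block 5 members fell with EGF over both genotypes, where 6.58% of all genes fell and 4.95% rose: Cox8b, Ndufa5, Ndufv1, Ndufs1 and Ndufb11. With the clone as a fixed block 4 fell (6.81% of all genes, with 5.28% higher): Cox8b, Ndufs1, Ndufa5 and Ndufa3. The share of members called, with 5 of 85, was near that of all genes. In Cic+/+ alone 1 member, Ndufv1, fell with the random block (3.2% of all genes, with 1.97% higher) and 0 with the fixed block (3.28%, with 2.3% higher). In Cic-/- alone 0 members passed with the random block, where 1.08% of all genes fell and 1% rose, or with the fixed block, where 1.6% fell and 1.39% rose.

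Cox8b, an isoform of a small complex IV subunit known from heart and skeletal muscle, had the largest EGF difference of the members in size. It was a dim gene, with a mean level of 5.45 over all arrays against the limit of 4.40. The stricter limit of 5.93 left it out of the test. With EGF its level was 4.49, 4.63, 4.98 and 5.35 in Cic+/+ and 5.48, 5.07 and 5.01 in Cic-/-. In EGF-free medium it read 5.95, 5.05, 5.12 and 6.41 in Cic+/+ and 7.07, 5.90 and 5.73 in Cic-/-. Every clone was lower with EGF, by 0.14 (clone 3) to 1.60 (clone 5), and in Cic-/- the media did not overlap. The difference over both genotypes was -0.91 ± 0.26 (SE), or 1.88-fold, with a limma adjusted p of 0.0666, of 0.00971 with the random block and of 0.00617 with the fixed block. It was -0.77 ± 0.34 in Cic+/+ and -1.05 ± 0.39 in Cic-/- (-1.59 with the brightest probeset), and all 4 Cox8b probesets were lower with EGF in both genotypes. With the mean of its probesets and no block, Cox8b differed by -1.17 over both genotypes (limma adjusted p = 0.019). Its widespread counterpart Cox8a was lower in every clone too, with a difference of -0.06 ± 0.08 and a limma adjusted p of 0.73. Of the 6 muscle markers listed for comparison 5 were tested, and 0 passed in any of the EGF comparisons; 1, 0 and 0 of them had an unadjusted p under 0.05 in Cic-/-, in Cic+/+ and over both genotypes.

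In complex I, 30 of 37 genes lay below 0 over both genotypes, with a median of -0.10. Ndufs1 encodes the largest core subunit and carries iron-sulfur clusters. Its level with EGF was 8.82, 8.89, 8.94 and 9.19 in Cic+/+ and 8.60, 9.11 and 9.37 in Cic-/-. Without EGF the levels were 9.24, 9.32, 9.40 and 9.82 in Cic+/+ and 9.23, 9.20 and 9.56 in Cic-/-. All 7 clones were lower with EGF, the media did not overlap in Cic+/+, and they overlapped in Cic-/-. The difference was -0.39 ± 0.14 over both genotypes, with a limma adjusted p of 0.137, of 0.0266 with the random block and of 0.0237 with the fixed block. Of the 24 Ndufs1 probesets 22 lay below 0.

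Ndufa5, an accessory subunit of complex I, read 6.40, 6.66, 6.36 and 6.86 in Cic+/+ and 6.24, 6.30 and 6.05 in Cic-/- with EGF. In the medium lacking EGF it was 6.84, 6.91, 6.79 and 7.03 in Cic+/+ and 6.54, 6.63 and 6.46 in Cic-/-. Each clone was lower with EGF, by 0.17 to 0.44, and each Cic-/- array lay below every Cic+/+ array of the same medium. The EGF difference was -0.34 ± 0.10, with a limma adjusted p of 0.0841, of 0.0152 with the random block and of 0.0298 with the fixed block. Its 7 probesets were divided, with 4 below 0, and the difference was -0.09 with their mean and -0.10 with the brightest probeset (limma adjusted p = 0.681 and 0.625).

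Ndufv1, the core subunit that binds NADH, read 10.37, 10.38, 10.50 and 10.48 with EGF and 10.62, 10.79, 10.83 and 10.87 without it in clones 1 to 4. In clones 5 to 7 it read 10.25, 10.32 and 10.26 with EGF and 10.62, 10.44 and 10.38 without it. Neither genotype's media overlapped, and all 16 Ndufv1 probesets lay below 0. The difference was -0.27 ± 0.08, with a limma adjusted p of 0.0869, of 0.0209 with the random block and of 0.0651 with the fixed block. With the mean of its probesets and no block it was -0.26 (limma adjusted p = 0.0353). Ndufb11 differed by -0.30 ± 0.10 (limma adjusted p = 0.143, 0.0324 with the random block) and by 0.04 when its brightest probeset stood for the gene. Ndufa3 differed by -0.33 ± 0.15 (limma adjusted p = 0.274, 0.0472 with the fixed block), by -0.18 with the mean of its probesets and by -0.13 with the brightest.

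Counting signs within clones, 20 of 85 members were lower with EGF in 7 of 7 clones, as were 7.43% of all genes, and 0 were higher in 7 of 7, as were 6.04%. The members of this kind, named because of that sign, were Ndufs1, Ndufv1, Ndufa3, Ndufa5, Ndufa10, Ndufa12, Ndufb7, Ndufb10, Ndufb11 and Ndufs8 of complex I, Sdha of complex II, and Uqcrq, Uqcrfs1 and Uqcrc1 of complex III. Complex IV gave Cox8b, Cox8a, Cox6a1, Cox6b1 and Cox7a1, and the ATP synthase gave 1 of its 17 genes, Atp5g3. Sdha carries the flavin that accepts electrons from succinate, Uqcrfs1 is the Rieske iron-sulfur protein, and Atp5g3 is 1 of 3 genes for the ring subunit of the ATP synthase. Most of the differences were small, and their adjusted p values were above 0.05 in the model without a block. The median over members by clone was -0.05, -0.19, -0.11 and -0.10 for the Cic+/+ cultures and -0.14, -0.09 and 0.03 for the Cic-/- cultures. Clone 7 was thus the only culture without a median below 0, and 39 of its 85 members were lower with EGF against 56 to 71 in the other clones.

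**Figure D2:**
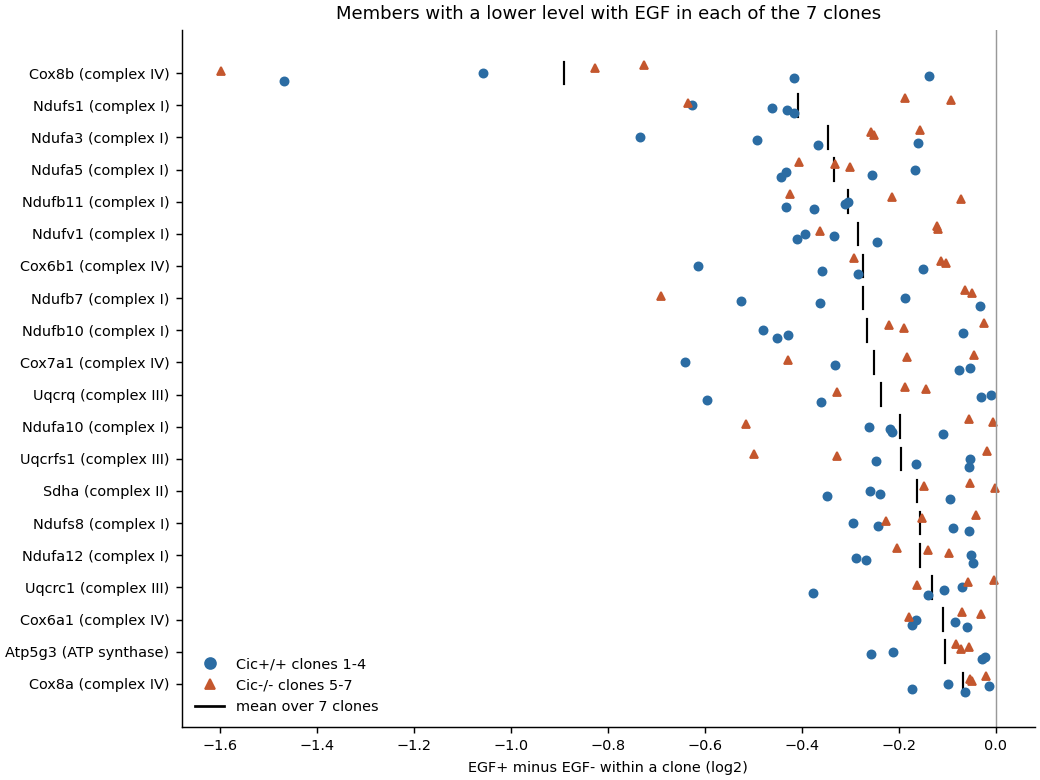
EGF+ minus EGF- difference within each clone (log2, horizontal axis) for the 20 members with a lower level with EGF in all 7 clones; circles are Cic+/+ clones 1 to 4, triangles Cic-/- clones 5 to 7 and black bars the mean over 7 clones. Cox8b spans -1.60 to -0.14, and Cox8a lies close to 0.

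Complex II had a median EGF difference of -0.25 in Cic+/+, with all 4 genes below 0, and of -0.14 in Cic-/-. Sdhb, its iron-sulfur subunit, read 8.91, 9.37, 9.49 and 9.65 with EGF and 9.42, 9.85, 9.96 and 10.32 without it in clones 1 to 4. In clones 5 to 7 it read 8.77, 9.39 and 9.07 with EGF and 9.76, 9.13 and 9.00 without it. Each Cic+/+ clone was lower with EGF, by 0.47 to 0.67, and so was clone 5, by 1.00, while clones 6 and 7 were higher. The Cic+/+ difference of -0.53 ± 0.23 had a limma adjusted p of 0.354 and of 0.123 with the random block, and was -0.29 with the mean of the probesets and -0.20 with the brightest. In complex III all 7 genes lay below 0 over both genotypes, the lowest being Uqcrq (-0.23 ± 0.10, limma adjusted p = 0.243), which belongs to the complex that oxidises ubiquinol. The ATP synthase was nearest to 0, with a median of -0.02 and with 12 of 17 genes below 0. Its extremes were Atp5e (-0.30 ± 0.18), the epsilon subunit of the catalytic head, and Atp5g1 (0.13 ± 0.18). The highest members of the other complexes were Ndufa4l2 (0.19 ± 0.35), Sdhd (0.01 ± 0.14), Uqcrc2 (-0.01 ± 0.10) and Cox6b2 (0.25 ± 0.42), with limma adjusted p values of 0.818 to 0.981.

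In the test of whether EGF effects differed between genotypes, 0 of 85 members passed, and 0 had an unadjusted p under 0.05; 0.00576% of all genes passed higher and 1.78% had an unadjusted p under 0.05 in that direction (1.08% lower). With the clone as a random or a fixed block 0 members passed either, where 0.0403% and 0.0173% of all genes passed higher. The median over members was 0.04 against 0.01 over all genes, with 27 of 85 below 0 (48.1% of all genes). The extremes were Ndufa4l2 (0.56 ± 0.69) and Atp5j2 (-0.55 ± 0.46), both with a limma adjusted p of 1. The median 95% interval half-width of these differences was 0.53 in the model without a block and before adjustment over all genes. Smaller differences between genotypes were not detectable for most members in that model, and larger ones could also fail to pass. No member was lower with EGF in every Cic+/+ clone and higher in every Cic-/- clone, or the reverse.

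The second comparison asks how loss of Cic bears on these genes, given as Cic-/- minus Cic+/+ in each medium. In the limma model 0 of 85 members passed with EGF or without it, where 0.242% and 0.426% of all genes fell and 0.0749% and 0.127% rose. At an unadjusted p under 0.05, 12 members were lower and 3 higher with EGF (5.52% and 5.10% of all genes), and 18 were lower and 3 higher without EGF (5.85% and 4.96%). The median member difference was -0.15 with EGF and -0.18 without it, against 0.02 and 0.00 over all genes. Below 0 lay 59 of 85 members with EGF and 64 without it, where 47.3% and 50.5% of all genes did. With EGF the genotypes had no overlap between arrays for 15 lower and 3 higher members (5.91% and 5.81% of all genes), and without EGF for 13 lower and 1 higher member (5.18% and 4.20%). The oligodendrocyte lineage list moved with the genotype as well, with mean levels of 8.33 to 8.77 in Cic+/+ against 7.42 to 8.02 in Cic-/- with EGF and of 9.17 to 9.52 against 8.01 to 8.66 without it. All 7 proliferation genes tested were lower in Cic-/- in both media, with medians of -0.96 with EGF and -0.47 without it. Of 5 astrocyte markers 2 were lower with EGF (median 0.21) and 5 without it (median -0.44). In these last 2 lists 0 genes passed by genotype. The part of the 3 lists in the members' differences was not tested. The 2 media are cultures of the same 7 animals, so they are not independent views of the genotype. With the clone as a random block 0 members passed in either medium, where 0.288% of all genes were lower and 0.0749% higher with EGF and 0.507% lower and 0.19% higher without it.

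**Figure D3:**
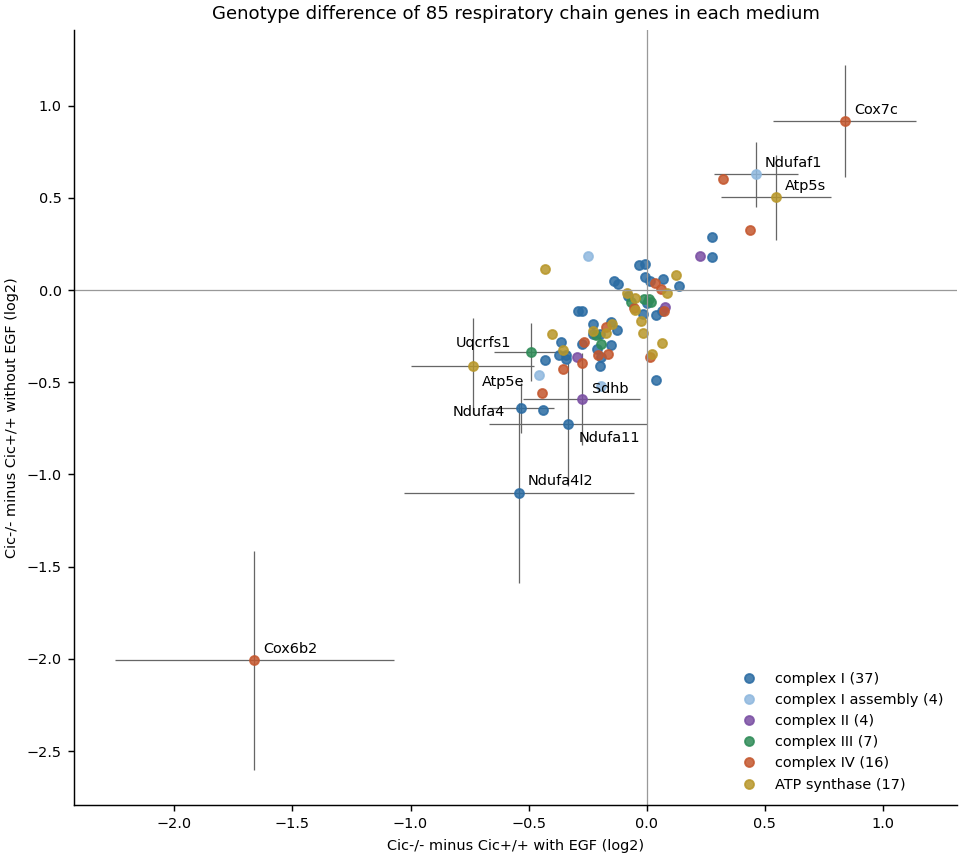
Cic-/- minus Cic+/+ difference of each of the 85 members with EGF (horizontal axis, log2) and without EGF (vertical axis, log2), coloured by complex; grey lines are the SE of the named genes. Most members lie below and left of 0 within 0.5, with Cox6b2 at -1.66 and -2.01 and Cox7c at 0.84 and 0.91 farthest out.

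Ndufa4, named as a complex I subunit and later placed in complex IV, had the smallest adjusted p of the members in both media. With EGF it read 10.21, 10.13, 10.24 and 10.42 in Cic+/+ and 9.53, 9.84 and 9.80 in Cic-/-. Without EGF it read 10.26, 10.49, 10.50 and 10.47 in Cic+/+ and 9.96, 9.78 and 9.62 in Cic-/-. Every Cic-/- array was below every Cic+/+ array, and all 6 Ndufa4 probesets had a lower mean in Cic-/- in both media. The difference was -0.53 ± 0.14 with EGF (1.44-fold lower, limma adjusted p = 0.142) and -0.64 ± 0.14 without EGF (1.56-fold lower, limma adjusted p = 0.0529). Without EGF it passed when the lowest 50% of genes were left out (limma adjusted p = 0.0473), with a trended robust prior (0.0366) and without clone 5 (-0.73, 0.0441), and not with the random block (0.0719). Over all alternatives its adjusted p without EGF ran from 0.0366 to 0.221. Ndufa4l2, a paralog known as a hypoxia target, had overlapping arrays and differences of -0.54 ± 0.49 and -1.10 ± 0.49 (limma adjusted p = 0.755 and 0.437). None of 15 hypoxia response genes passed in any comparison, and 3 and 1 were higher in Cic-/- at an unadjusted p under 0.05 with and without EGF (5.1% and 4.96% of all genes). With the clone as a random block 1 of the 15 was higher and 1 lower with EGF over both genotypes, the latter being Higd1a (-0.85, limma adjusted p = 0.0233). Of all genes 4.95% were higher and 6.58% lower in that fit.

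Cox6b2, the isoform of a complex IV subunit known from testis, had the largest difference in size of the members. With EGF it read 9.00, 8.67, 9.68 and 9.06 in Cic+/+ and 6.20, 8.87 and 7.26 in Cic-/-. In EGF-free medium it read 8.75, 8.69, 9.44 and 9.22 in Cic+/+ and 5.49, 8.08 and 7.48 in Cic-/-. Cic-/- clone 6 lay near the Cic+/+ clones, above clone 2 with EGF, while clones 5 and 7 lay far below them. The difference was -1.66 ± 0.59 with EGF (3.16-fold lower, limma adjusted p = 0.32) and -2.01 ± 0.59 without EGF (4.02-fold lower, limma adjusted p = 0.192). Without clone 5 it shrank to -1.04 with EGF and -1.24 without it (limma adjusted p = 0.379 and 0.244), and without clone 6 it passed without EGF (-2.54, limma adjusted p = 0.0478). With EGF no other member had so wide a range among the Cic-/- clones. Without EGF the range of Uqcrb, a complex III subunit named here after its values were seen, was as wide, from 3.01 to 5.65. Uqcrb has 1 probeset of its own and a mean level of 4.48, close to the dim limit of 4.40. The widespread isoform Cox6b1 differed by -0.16 ± 0.15 with EGF and by -0.35 ± 0.15 without it (limma adjusted p = 0.755 and 0.418).

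**Figure D4:**
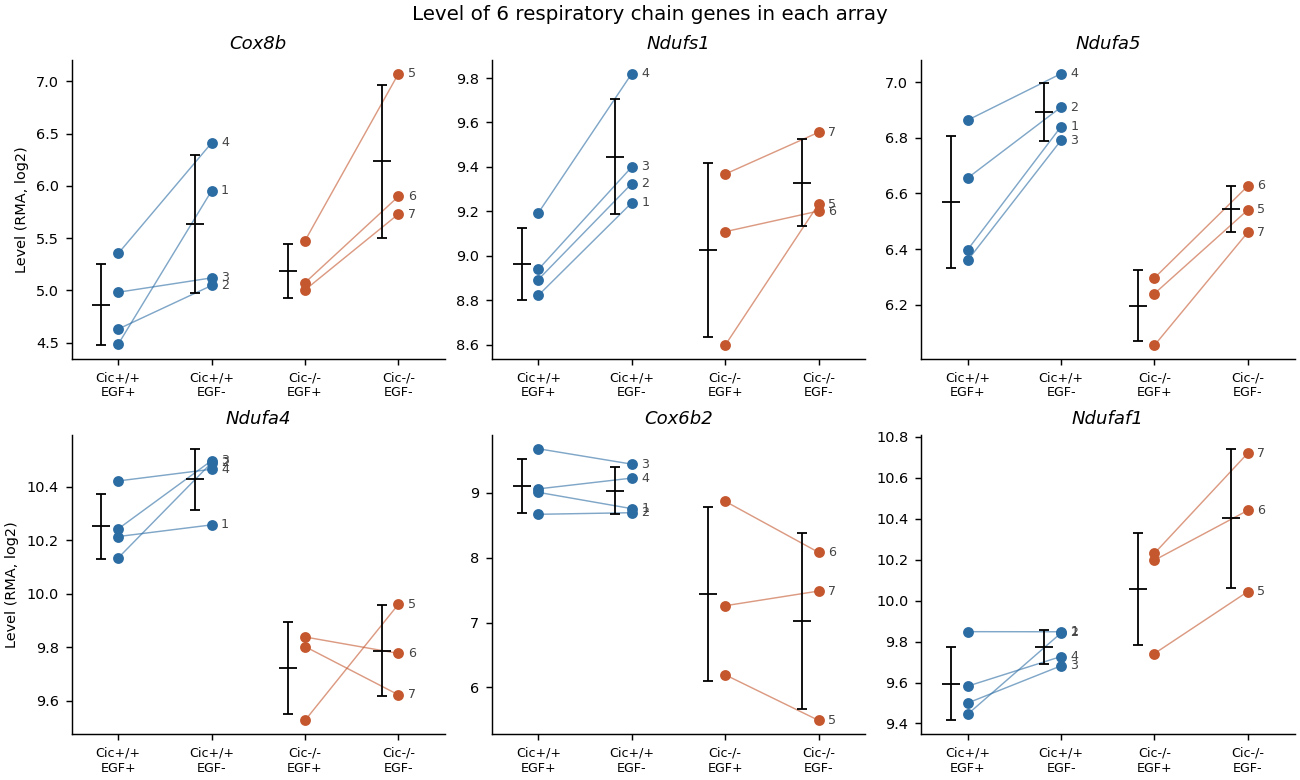
Level (RMA, log2) of 6 members in each array by genotype and medium; lines join the arrays of a clone, numbers are clones, and black bars are the group mean ± SD (n = 4 for Cic+/+, n = 3 for Cic-/-). Cox8b, Ndufs1 and Ndufa5 were lower with EGF in each clone, the Cic-/- arrays of Ndufa4 (9.53 to 9.96) lay below its Cic+/+ arrays (10.13 to 10.50), and Cox6b2 ran from 5.49 to 8.87 among the Cic-/- arrays.

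The members on the higher side in Cic-/- were led by Cox7c, a small subunit of complex IV. With EGF it read 7.53, 8.20, 7.51 and 7.91 in Cic+/+ and 8.63, 8.40 and 8.84 in Cic-/-. Without EGF the levels were 7.50, 8.83, 7.69 and 7.57 in Cic+/+ and 8.33, 9.08 and 9.03 in Cic-/-. The genotypes did not overlap with EGF and overlapped without it through Cic+/+ clone 2. The difference was 0.84 ± 0.30 with EGF and 0.91 ± 0.30 without it (limma adjusted p = 0.327 and 0.25), and without clone 2 the latter passed (1.23, limma adjusted p = 0.0365). Of its 5 probesets 4 were higher with EGF and 3 without it, and with their mean the differences were 0.49 and 0.36 (limma adjusted p = 0.246 and 0.443). Ndufaf1, an assembly factor of complex I, read 9.85, 9.45, 9.50 and 9.58 in Cic+/+ and 9.74, 10.20 and 10.23 in Cic-/- with EGF. In the medium lacking EGF it was 9.85, 9.84, 9.68 and 9.73 in Cic+/+ and 10.04, 10.44 and 10.72 in Cic-/-. Only without EGF did the genotypes not overlap, and all 7 probesets were higher in Cic-/- in both media. The difference was 0.46 ± 0.18 with EGF and 0.63 ± 0.18 without it (limma adjusted p = 0.357 and 0.169), and without clone 5 the latter passed (0.81, limma adjusted p = 0.0428). Atp5s, now called Dmac2l, was at 0.55 ± 0.23 and 0.50 ± 0.23 (limma adjusted p = 0.413 and 0.454).

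Of the other assembly factors, Ndufaf3 had all Cic-/- arrays below the Cic+/+ arrays of the same medium, with differences of -0.46 ± 0.18 in both (limma adjusted p = 0.371 and 0.342). In complex III, Uqcrfs1 read 7.70, 7.64, 7.57 and 7.54 in Cic+/+ and 7.28, 7.11 and 6.97 in Cic-/- with EGF. Without EGF it read 7.75, 7.80, 7.82 and 7.59 in Cic+/+ and 7.61, 7.61 and 6.99 in Cic-/-. The genotypes were apart with EGF and overlapped without it. The difference was -0.49 ± 0.16 with EGF and -0.34 ± 0.16 without it (limma adjusted p = 0.258 and 0.464), the former being -0.23 with the brightest probeset. Probesets shared between Uqcr10, another subunit of complex III, and its related sequences gave no gene value; the 2 of 5 that were apart in both media were lower in Cic-/-.

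In the ATP synthase the largest negative difference with EGF was that of Atp5e. It read 7.48, 7.69, 7.72 and 7.45 in Cic+/+ and 7.21, 7.17 and 6.16 in Cic-/- with EGF. In EGF-free medium it read 7.80, 7.79, 8.19 and 7.12 in Cic+/+ and 7.42, 7.17 and 7.34 in Cic-/-. The genotypes were apart with EGF, where clone 7 was lowest, and overlapped without it through Cic+/+ clone 4. The difference was -0.74 ± 0.26 with EGF and -0.41 ± 0.26 without it (limma adjusted p = 0.312 and 0.616), and without clone 7 the former was -0.39 (limma adjusted p = 0.571). In complex II, Sdhb was at -0.28 ± 0.25 and -0.59 ± 0.25 (limma adjusted p = 0.755 and 0.417), with overlapping arrays in both media, and the latter was -0.38 with the mean of the probesets.

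Other members passed only when a clone or a setting was altered, and are named because they did. Without EGF and without clone 5, Cox7a2 (-0.75, limma adjusted p = 0.0435) and Ndufa11 (-1.23, limma adjusted p = 0.0428) passed; over all clones they were at -0.56 ± 0.18 and -0.73 ± 0.33. With the mean of the probesets in place of the median, Ndufa7 passed without EGF (-0.51, limma adjusted p = 0.0378) against -0.36 with the median. Cox7a2 is the widespread isoform of a complex IV subunit, and its arrays did not overlap between genotypes in either medium. Clone 5 without EGF read 6.64 for Ndufa11, above 3 of the 4 Cic+/+ clones, where clones 6 and 7 both read 5.13.

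The isoform pairs of complex IV can be followed within each gene, since levels of different probesets are not compared. Cox4i1, the widespread form, differed between genotypes by -0.36 ± 0.20 and -0.43 ± 0.20, and Cox4i2, known for induction at low oxygen, by -0.26 ± 0.26 and -0.28 ± 0.26 with and without EGF (limma adjusted p from 0.449 to 0.78). Cox6a1 differed by -0.17 ± 0.11 and -0.20 ± 0.11, and the muscle form Cox6a2 by 0.07 ± 0.23 and -0.11 ± 0.23. Cox7a1, the muscle form, was at 0.06 ± 0.30 and 0.01 ± 0.30, and Cox7a2l, a relative with a role in joining complexes into supercomplexes, at 0.02 ± 0.23 and -0.36 ± 0.23. Cox7b was at 0.03 ± 0.15 and 0.04 ± 0.15, and the dim isoforms Cox7b2 and Cox8c lay between 2.96 and 3.47 and between 2.73 and 3.66 in all arrays. Cox8a was at -0.05 ± 0.11 and -0.10 ± 0.11, and Cox8b at 0.32 ± 0.37 and 0.60 ± 0.37. The genes Atp5g1, Atp5g2 and Atp5g3 encode the same mature ring subunit and were at -0.03 ± 0.25, -0.35 ± 0.15 and -0.17 ± 0.13 with EGF and at -0.17 ± 0.25, -0.33 ± 0.15 and -0.23 ± 0.13 without it. None of these isoforms passed. In the model without a block and before adjustment, the 95% interval half-width was 0.38 for the median member in the genotype comparisons. Differences smaller than that were mostly not detectable in that model, and larger ones could also fail to pass.

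Related genes outside the rule were read from lists by function. Of the 13 subunits encoded in mitochondrial DNA 10 were measured, and 0 passed in any of the 6 comparisons, with 0 at an unadjusted p under 0.05 and medians from -0.04 to -0.01. Of 7 electron carriers and dehydrogenases tested, Etfa, the alpha subunit of the flavoprotein that takes electrons from fatty acid oxidation, fell with EGF in Cic+/+ (-0.67 ± 0.14, limma adjusted p = 0.0379) and over both genotypes (-0.56 ± 0.11, limma adjusted p = 0.00864). Etfdh, the enzyme that passes these electrons to ubiquinone, fell over both genotypes (-0.41 ± 0.10, limma adjusted p = 0.0373). Of all genes 0.593% fell in Cic+/+ and 2.27% over both genotypes. In 75 genes of the mitochondrial ribosome, Mrpl38 (0.46 ± 0.11, limma adjusted p = 0.035) and Mrpl23 (0.38 ± 0.09, limma adjusted p = 0.0276) rose with EGF over both genotypes and 0 fell. Of all genes 1.64% rose and 2.27% fell there, so 2 of 75 was near the share of all genes. By genotype 0 of the 75 passed; 9 were lower and 0 higher with EGF at an unadjusted p under 0.05 and 11 and 0 without it, where 5.52% and 5.85% of all genes were lower. The medians of this list by genotype were -0.11 and -0.12, with 51 of 75 genes below 0 in both media, and those of the tricarboxylic acid cycle were -0.13 and -0.15, beside -0.15 and -0.18 for the respiratory chain members. Among 36 other assembly factors, 17 genes of the tricarboxylic acid cycle and 19 regulators of mitochondrial biogenesis 0 passed in any comparison in the model without a block. At an unadjusted p under 0.05 over both genotypes, 3, 2 and 2 of these lists' genes were lower with EGF and 0, 0 and 2 higher, where 10.1% and 7.88% of all genes were. With the clone as a random block, 1 gene of each of these 3 lists passed in the limma fit over both genotypes. Surf1 (limma adjusted p = 0.042), an assembly factor of complex IV, fell with EGF as 1 of 36. Pcx (limma adjusted p = 0.0056), pyruvate carboxylase, fell as 1 of 17, and Myc (limma adjusted p = 0.0143) rose as 1 of 19. Of all genes 6.58% fell and 4.95% rose in that fit, so these counts were near or below the share of all genes. With the random block in Cic+/+ alone, 1 of the 36 assembly factors fell, Cox17 (-0.45, limma adjusted p = 0.04945), where 3.2% of all genes fell. Of the 75 mitochondrial ribosome genes, 3 rose with that block over both genotypes and 2 in Cic+/+, where 4.95% and 1.97% of all genes rose.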

How the data were processed

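The submitters deposited 269751 probesets over 14 arrays as log2 values from RMA, per the submitters' processing notes; neither the RMA version nor the annotation build of the arrays is given in the sources used here. Each gene took the median over probesets naming it alone (233753 probesets, 1 to 24 per member, median 6). Genes under a mean of 4.40, the lowest 25%, were left out, and 17364 were tested. In R 4.3.3, limma 3.58.1 fitted 4 group means over all 14 arrays, with 10 residual and 4.06 prior degrees of freedom; p-values were adjusted by Benjamini-Hochberg over all genes tested, and a gene passed under 0.05. The data.table package (1.17.8), Python 3.11.15, pandas 2.3.3 and matplotlib 3.10.9 did the rest. Only the fit without a clone block was checked on simulated data, in which the arrays were independent and clones were not paired.

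The labels give the arrays of an animal the same clone number, and deviations from the group means correlated within each clone (0.156 to 0.616), so the clones are paired; the block had a consensus correlation of 0.348. Replicates are cultures of different animals, and their number limits the precision. The members, lists and named genes were chosen with earlier results of these data known. Named members are those that pass, the largest positive and negative difference of each complex in each comparison and the isoform families; others were chosen after their values were seen. Alternatives were the mean or brightest probeset, no or a stricter dim filter, centring, quantile normalization, a trended robust prior, clone blocks, each clone left out, and only the arrays compared. RefSeq promoters were searched on both strands.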

Additional observations from a re-analysis of the deposited data

Results flagged for a closer look

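Among 95 sets of 4 Cic+/+ values, 4 had a single value far from the other 3 by Dixon's criterion; chance alone flags about 1 in 20 such sets. Ndufa4 without EGF was lowest in clone 1, at 10.26 against 10.47 to 10.50. Cox7c without EGF was highest in clone 2, at 8.83 against 7.50 to 7.69, which is the clone whose removal brought its genotype difference past the threshold. Atp5g3 without EGF was lowest in clone 2, at 9.75 against 9.93 to 9.96. The median deviation of the 4 complex I assembly factors with EGF was lowest in clone 3, at -0.32 against 0.15 to 0.23. No member's EGF effect passed the test of a difference between genotypes.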

How the results depend on the processing

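Over all 98 pairs of a comparison and an alternative, the median over members moved by less than the SD of the medians between clones or arrays. That measure does not test the direction. With each clone left out in turn, the median kept its direction in every comparison. For the difference in EGF effect between genotypes it then ran from 0.0083 to 0.0759. Members past the threshold stayed at 0 higher and 0 lower except as follows. For EGF in Cic+/+, 1 fell with the clone as a random replicate block. For EGF over both genotypes, 2 (Cox8b and Ndufv1) fell with the mean of the probesets, 5 with the random and 4 with the fixed replicate block. For genotype without EGF, 1 was lower with the mean of the probesets, 1 with the 50% filter and 1 with the trended prior, and leaving out a clone gave 0 to 1 higher and 0 to 3 lower. All genes passing, EGF in Cic+/+ (156): 256 with the mean, 897 and 969 with the random and fixed blocks, 17 to 217 without a clone. EGF in Cic-/- (33): 70 with the mean, 51 with the 50% filter, 55 centred, 59 with quantiles, 50 with the trended prior, 361 and 519 with the blocks, 3 with only the arrays compared, 0 to 68 without a clone. EGF over both (679): 2003 and 2099 with the blocks, 142 to 788 without a clone. Genotype with EGF: 19 to 60 without a clone. Genotype without EGF (96): 170 with the mean, 44 with only the arrays compared, 53 to 125 without a clone. Difference in EGF effect (1): 2 with the mean, 0 with the brightest probeset, 0 with the 50% filter, 7 and 3 with the blocks, 1 to 3 without a clone. With the mean or the brightest probeset the EGF differences of Ndufa5 and Ndufa3 over both genotypes and of Sdhb in Cic+/+ shrank to between -0.29 and -0.09. The EGF difference of Ndufb11 turned to 0.0366 with the brightest probeset. The median deviation of clone 2 without EGF was 0.0656 after centring (0.14), and that of clone 3 with EGF was -0.0306 with the mean of the probesets (0.05). The causes were not tested.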
